A study of Mus musculus with 6 samples.

Results

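The Zic genes encode zinc finger transcription factors, and 4 of them, Zic1, Zic2, Zic4 and Zic5, were followed here in the outer wall of the mouse eye. A probe set was taken for a gene where the platform annotation gave it exactly 1 symbol and that symbol was among these names. This left 5 probe sets for the 4 genes, out of 22180 genes measured in all. Zic5 had 2 probe sets, and the brighter of these, by its mean over the 6 arrays, stands for the gene. The set was selected on its log2 differences between 5XFAD and WT tissue in these arrays, so its values in that comparison are given as a description, with no p.

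RNA was taken at 12 months of age from a dissection that held the retinal pigment epithelium (RPE), the choroid and the sclera together. Here the RPE is the pigmented layer behind the photoreceptors, the choroid its vascular bed and the sclera the fibrous wall around them. The 3 samples in the 5XFAD group came from heterozygous carriers of the 5XFAD transgene, and the 3 samples of the WT group from non-transgenic wild-type littermates, and no sample was treated. In the 5XFAD line, mutant human amyloid precursor protein and presenilin 1 of familial Alzheimer's disease are expressed from Thy1 promoter constructs, active mainly in neurons. Precision is limited by the number of arrays, 1 for each sample. Whether a sample was 1 animal is not given in the labels, so the spread between samples may be partly technical.

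The dissected tissue showed the markers its label calls for. All 12 listed RPE genes were measured, at a median percentile of 99.6 of all genes by mean level, as were all 8 genes of choroidal endothelium (95.9) and all 12 of sclera and fibroblasts (98.4). The dimmest RPE gene, Best1, was an exception at percentile 33.7. Photoreceptor genes were read as well, 14 of them at a median percentile of 45.6, with Gnat1 at 90.2. Their mean log2 intensity varied between arrays, from 5.44 in 5XFAD replicate 3 to 6.30 in WT replicate 1. How much retina the samples held was not tested. Median log2 intensity over genes was 6.02 to 6.06 per array, and the mean correlation of an array with the others was 0.987 to 0.989. In bulk tissue, fewer cells of a type and less RNA per cell cannot be told apart.

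Zic proteins are relatives of the Gli factors that carry the Hedgehog signal, and their zinc fingers bind related GC-rich sites. In vertebrates the genes lie in neighbouring pairs that are read away from each other. In the mouse they are known from the dorsal neural tube, the cerebellum, the meninges and the somites. Zic2 is known in the developing eye from the retinal ganglion cells whose axons do not cross at the optic chiasm, and human ZIC1 and ZIC4 from the cerebellar malformation of Dandy-Walker syndrome. In this set Zic1 and Zic4 form a neighbour pair on chromosome 9, and Zic5 and Zic2 form another on chromosome 14.

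The promoters of the neighbours Zic1 and Zic4 are shown with that of Zic5, because the genes of a pair are read in opposite directions and differed in how far they were raised. Each is the stretch from 250 bases before to 50 bases after the annotated start, 5′ to 3′ on the gene's own strand, from RefSeq on GRCm38.p6. Sequences of 3 of the 4 genes were matched. Capitals mark CCAAT and CACGTG, the only motifs of those searched that were found. The Zic1 window is chr9:91365719-91366018 on the minus strand, the Zic4 window chr9:91368722-91369021 on the plus strand and the Zic5 window chr14:122465609-122465908 on the minus strand.
Zic1: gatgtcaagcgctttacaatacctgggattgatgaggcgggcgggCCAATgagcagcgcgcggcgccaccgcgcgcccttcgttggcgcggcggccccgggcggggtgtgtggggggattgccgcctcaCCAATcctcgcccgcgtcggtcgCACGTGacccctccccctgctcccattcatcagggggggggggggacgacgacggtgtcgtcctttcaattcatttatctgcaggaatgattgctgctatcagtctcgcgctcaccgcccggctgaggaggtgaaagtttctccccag
Zic4: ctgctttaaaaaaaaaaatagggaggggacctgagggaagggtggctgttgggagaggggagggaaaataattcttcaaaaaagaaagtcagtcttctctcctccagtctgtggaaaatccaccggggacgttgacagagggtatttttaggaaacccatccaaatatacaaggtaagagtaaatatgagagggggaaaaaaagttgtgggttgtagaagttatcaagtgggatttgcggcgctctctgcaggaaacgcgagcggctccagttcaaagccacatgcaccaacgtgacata
Zic5: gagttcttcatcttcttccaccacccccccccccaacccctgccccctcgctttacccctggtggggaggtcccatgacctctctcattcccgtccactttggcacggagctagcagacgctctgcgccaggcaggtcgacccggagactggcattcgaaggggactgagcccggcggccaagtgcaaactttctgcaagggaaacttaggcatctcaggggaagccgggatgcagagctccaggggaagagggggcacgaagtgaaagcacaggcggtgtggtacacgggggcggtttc

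The windows differed in base composition. The Zic1 window was 65.3% G or C with 31 CpG dinucleotides, more CpG than 89.4% of 32851 RefSeq promoters of the same length. The Zic4 window was 46.0% G or C, below the median promoter (52.7%), with 8 CpG, against a median of 7, and the Zic5 window 62.7% with 15 CpG. The Zic1 window held 2 CCAAT boxes, at bases 46 to 50 and 130 to 134 of the window, and 1 CACGTG at bases 153 to 158. On either strand, CCAAT occurs in 37.4% of all these promoters and CACGTG in 7.15%. Searched on both strands and not among the letters of these windows were CAGCAGG, a core of Zic binding sites (10.5% of promoters), GGGTGGTC, a site bound by Gli and Zic fingers (0.807%), and the TATA box TATAAA (13.6%). No motif overlapped another.

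Zic1 and Zic2 were higher in 5XFAD tissue, while the group means of their neighbours Zic4 and Zic5 were at most 0.19 log2 units above WT. Zic1, a factor of dorsal neural and meningeal cells, read 7.83, 8.33 and 7.58 (log2 intensity) in 5XFAD replicates 1, 2 and 3, against 6.51, 7.53 and 5.86 in WT replicates 1, 2 and 3. The groups did not overlap, but WT replicate 2 came within 0.05 of the lowest 5XFAD array. Means were 7.92 ± 0.38 in 5XFAD and 6.63 ± 0.84 in WT (SD, n = 3 each), a log2 difference of 1.28 ± 0.36 (SE) or 2.43-fold. The WT arrays spanned 1.67 log2 units, more than the difference between the group means, and the 5XFAD arrays 0.75.

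Zic2, the gene altered in a form of holoprosencephaly, was the steadier of the raised genes. It read 6.84, 6.94 and 6.98 (log2 intensity) in the 5XFAD arrays, against 5.76, 6.29 and 5.88 in the WT arrays, in replicate order. The lowest 5XFAD array lay 0.55 above the highest WT array. Means were 6.92 ± 0.07 in 5XFAD and 5.98 ± 0.28 in WT (SD, n = 3 each), a log2 difference of 0.94 ± 0.14 (SE) or 1.92-fold.

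Zic4, read from the opposite strand to Zic1, was dim. It read 5.52, 5.24 and 5.24 (log2 intensity) in the 5XFAD arrays, against 5.15, 5.19 and 5.10 in the WT arrays. The groups did not overlap by a margin of 0.04, and 5XFAD replicate 1 alone stood clear of the rest. Means were 5.33 ± 0.16 in 5XFAD and 5.15 ± 0.05 in WT (SD, n = 3 each), a log2 difference of 0.19 ± 0.11 (SE) or 1.14-fold. Without 5XFAD replicate 1 the difference was 0.09. After another quantile normalization of the deposited values the groups overlapped, which left Zic1 and Zic2 as the 2 of the 4 genes with groups apart.

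Zic5, the neighbour of Zic2, had nearly level arrays. It read 6.04, 6.02 and 6.09 (log2 intensity) in the 5XFAD arrays, against 5.97, 6.03 and 5.86 in the WT arrays. The groups overlapped, since WT replicate 2 was above 5XFAD replicate 2. Means were 6.05 ± 0.04 in 5XFAD and 5.95 ± 0.09 in WT (SD, n = 3 each), a log2 difference of 0.10 ± 0.10 (SE) or 1.07-fold. The second Zic5 probe set lay far lower, at percentile 7.92 of the probe sets with 1 symbol, and read 3.54, 3.62 and 3.63 in the 5XFAD arrays, against 3.40, 3.26 and 3.40 in the WT arrays. Its log2 difference was 0.24, with groups that did not overlap, so that the 2 probe sets of Zic5 differ on whether the groups are apart.

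**Figure D1:**
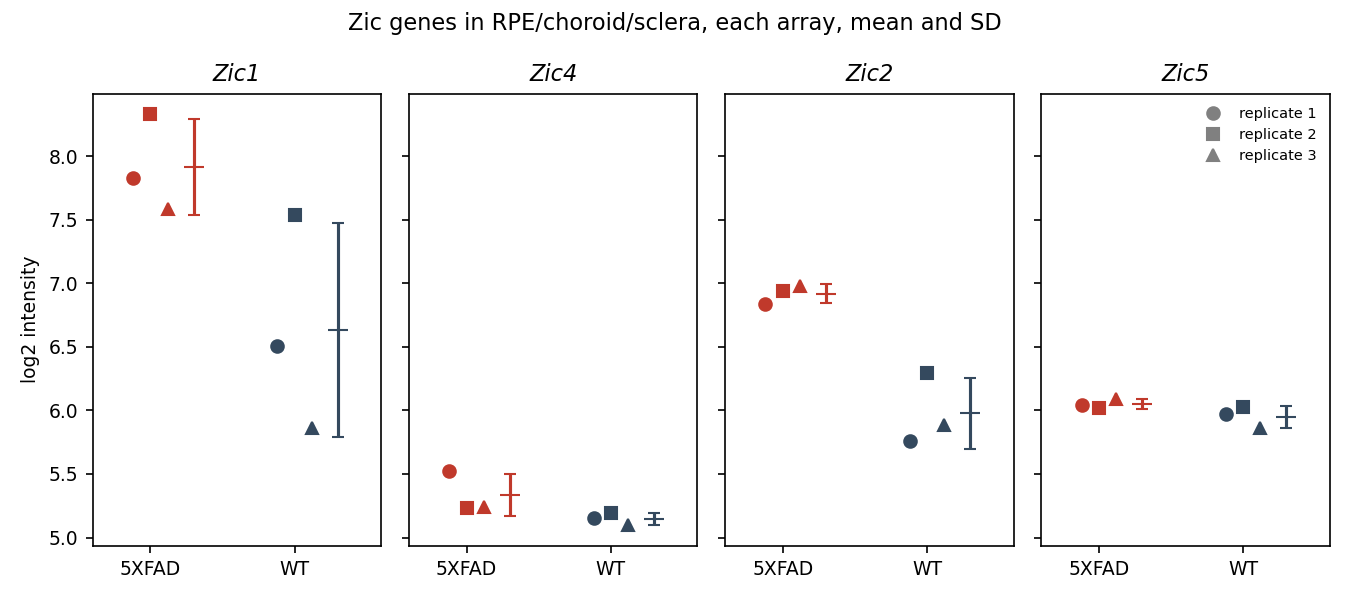
Log2 intensity (vertical axis) of each Zic gene in the 3 5XFAD and 3 WT arrays, a marker shape for each replicate number, with the mean and SD of each group beside the points. Zic1 and Zic2 are 1.28 and 0.94 higher in 5XFAD, and Zic4 and Zic5 0.19 and 0.10 higher.

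Of the 4 genes, 3 had 5XFAD arrays that all lay above all WT arrays, as had 4.72% of all genes, and for Zic1 and Zic2 the fold was also at least 1.5, as for 0.347% of all genes. Since the genes were singled out on this comparison, nothing is read from these counts. The median log2 difference over all genes was -0.01. The mean of Zic1 and Zic4 was 6.62 ± 0.19 in 5XFAD and 5.89 ± 0.44 in WT, and that of Zic2 and Zic5 was 6.49 ± 0.05 in 5XFAD and 5.96 ± 0.17 in WT (log2 intensity, SD, n = 3 each). Within the pairs the log2 difference of Zic1 exceeded that of Zic4 by 1.09, and that of Zic2 exceeded that of Zic5 by 0.84.

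The rank of Zic1 and Zic2 among all genes of an array moved with the genotype. Zic1 lay at percentile 82.1, 89.2 and 78.8 of all genes in the 5XFAD arrays, against 58.8, 76.5 and 46.1 in the WT arrays. Zic2 lay at percentile 64.6, 66.7 and 67.6 in the 5XFAD arrays, against 44.6, 54.5 and 46.4 in the WT arrays. Zic4 stayed between percentile 34.6 and 40.1 in 5XFAD and between 30.8 and 35.2 in WT, and Zic5 between 49.6 and 50.7 in 5XFAD and no higher than 49.95 in WT.

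All 4 genes had their highest WT value in WT replicate 2, as had 36.8% of all genes, and 3 of the 4 had their lowest in WT replicate 3, as had 35.3% of all genes. Zic1 and Zic2 had a Pearson correlation of 0.88 over the 6 arrays and 0.71 after each group's mean was taken off. For Zic1 and its neighbour Zic4 these values were 0.61 and 0.16, and for Zic2 and its neighbour Zic5 they were 0.78 and 0.58. These correlations describe 6 arrays, which share 1 normalization, and the first of each includes the genotype difference. Without WT replicate 2 the log2 difference of Zic1 was 1.73, and without WT replicate 3 it was 0.90, while that of Zic2 was 1.1 and 0.90.

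None of the genes around the Zic pairs passed the test. The 3 nearest measured protein-coding genes on each side of each pair were taken from the RefSeq table of GRCm38.p6, which made 12 neighbours. In limma 0 of the 12 passed a Benjamini-Hochberg adjusted p of 0.05 over all genes, as did 0.0225% of all genes, and 1 had an unadjusted p under 0.05, as had 6.28% of all genes. That gene was Plscr5, of the phospholipid scramblase family and next to Zic4, at 4.30 ± 0.13 in 5XFAD and 4.63 ± 0.09 in WT (log2 intensity, SD, n = 3 each), a log2 difference of -0.33 ± 0.11 (SE; limma, Benjamini-Hochberg adjusted p = 0.65).

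On the other side, Tbc1d2b, which encodes a regulator of Rab GTPases and lies next to Zic1, differed by -0.04 ± 0.11 (log2, SE). Clybl, which encodes a mitochondrial enzyme, lies beside Zic5 and differed by 0.03 ± 0.13. Pcca, a subunit gene of propionyl-CoA carboxylase beside Zic2, differed by 0.01 ± 0.13. The remaining neighbours lay between -0.08 (Tm9sf2) and 0.27 (Timm8a2), and for those of Zic2 and Zic5 the lowest Benjamini-Hochberg adjusted p in limma was 0.85.

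**Figure D2:**
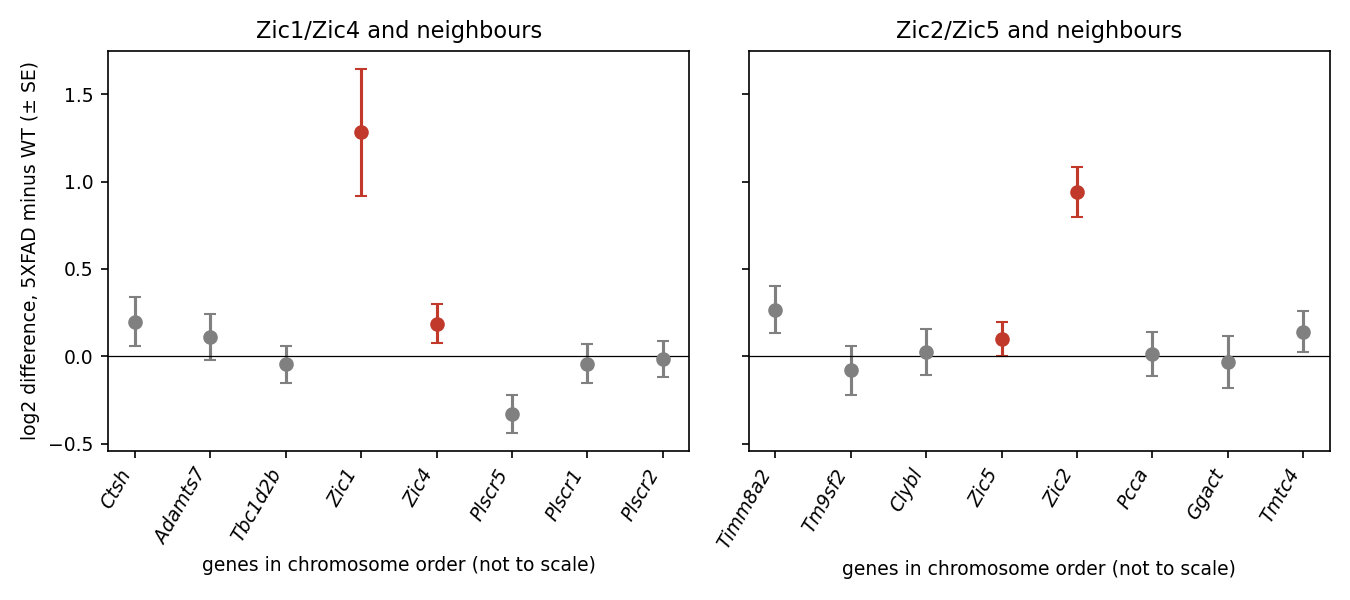
Log2 difference, 5XFAD minus WT, with SE bars (vertical axis) of the Zic genes in red and of the 3 nearest measured protein-coding genes on each side in grey, in chromosome order and not to scale. Zic1 (1.28) and Zic2 (0.94) stand above neighbours that lie between -0.33 and 0.27.

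The Gli and Glis genes, whose zinc fingers are related to those of Zic proteins, gave no call. All 6 were measured, 3 with a positive difference, and the list's median log2 difference was 0.00, against -0.01 over all genes. In limma 0 of 6 passed the adjusted threshold, and 0 had an unadjusted p under 0.05. Gli3, which acts mainly as the repressor of the Hedgehog pathway, read 6.84, 7.10 and 7.19 (log2 intensity) in the 5XFAD arrays, against 6.61, 7.02 and 6.53 in the WT arrays. These arrays overlapped, with a log2 difference of 0.32 ± 0.15 (SE; limma, Benjamini-Hochberg adjusted p = 0.82). Gli1, a target and activator of the pathway, differed by -0.08 ± 0.12.

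Among 10 measured genes of the Hedgehog pathway, in limma 0 passed the adjusted threshold, 0 had an unadjusted p under 0.05, and the median log2 difference was -0.01. The ligand gene Shh was dim, at 4.09 ± 0.05 in 5XFAD and 4.39 ± 0.25 in WT (log2 intensity, SD, n = 3 each), with a log2 difference of -0.30 ± 0.13 (SE; limma, Benjamini-Hochberg adjusted p = 0.80). The coreceptor gene Cdon differed by 0.44 ± 0.21 (0.82), the ligand gene Dhh by -0.23 ± 0.12 (0.85), and Ptch1, the receptor and a target, by -0.18 ± 0.14 (0.93, limma, Benjamini-Hochberg adjusted p).

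Genes that studies of other tissues and species have named as Zic targets gave no call. All 11 were measured, their median log2 difference was 0.10, and it was -0.01 without WT replicate 2, 0.02 without 5XFAD replicate 1 and -0.01 with probe sets averaged for each gene. In limma 0 passed the adjusted threshold. At an unadjusted p under 0.05, 1 was higher and 1 lower, against 2.89% of all genes higher and 3.39% lower. Snai2, a transcription factor gene of the neural crest, was at 8.07 ± 0.33 in 5XFAD and 7.58 ± 0.32 in WT, and the cyclin gene Ccnd1 at 8.81 ± 0.22 in 5XFAD and 9.21 ± 0.24 in WT (log2 intensity, SD, n = 3 each). The log2 differences were 0.49 ± 0.20 for Snai2 and -0.40 ± 0.15 for Ccnd1 (SE; limma, Benjamini-Hochberg adjusted p = 0.75 and 0.73). Apoe, the apolipoprotein E gene, whose promoter human ZIC1 and ZIC2 were found to activate, read 8.13, 8.04 and 8.09 in the 5XFAD arrays, against 8.00, 8.01 and 7.93 in the WT arrays. Its groups did not overlap, and its log2 difference was 0.10 ± 0.09 (SE; limma, Benjamini-Hochberg adjusted p = 0.93). Ephb1, the guidance receptor gene that Zic2 induces in uncrossed retinal axons, differed by 0.10 ± 0.15.

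The genes whose profile was most like that of the Zic1 and Zic4 mean over the 6 arrays were Penk, Xkr4, Best2, Pcdh7 and Slc7a11, with Pearson correlations of 0.988 to 0.998. They were the highest of 2905 named genes with a mean above the median gene and a range of at least 0.5 log2 units. Correlations picked in this way over 6 arrays are high in part by the choice. How high those of unrelated genes would reach was not tested. With Zic1 alone these genes correlated at 0.981 to 0.995, and with Zic4 alone at 0.644 to 0.728. Penk, which encodes the enkephalin precursor, read 10.70, 10.84 and 10.33 (log2 intensity) in the 5XFAD arrays, against 9.57, 10.18 and 9.02 in the WT arrays. Best2, which encodes a bestrophin of the non-pigmented ciliary epithelium, read 7.16, 7.32 and 6.93 in the 5XFAD arrays, against 6.49, 7.01 and 6.17 in the WT arrays. In both genes WT replicate 2 was the highest WT array and WT replicate 3 the lowest, as in Zic1, which their choice favours. For Best2 the groups overlapped.

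Among the other genes like the Zic1 and Zic4 mean, Xkr4 encodes a membrane protein related to scramblases, Pcdh7 a protocadherin and Slc7a11 a cystine transporter. Their log2 differences of 0.97, 0.48 and 0.91, with 1.04 for Penk and 0.58 for Best2, follow in part from how they were chosen and are given as a description. That of Slc7a11 was 0.44 with its probe sets averaged. After each group's mean was taken off, the most alike were Best2, Vti1a, Slc7a8, Gja1 and Penk, with correlations of 0.996 to 0.998. With Zic4 alone, these correlations were 0.28 to 0.37. Gja1, encoding the gap junction protein connexin 43, read 10.59, 10.79 and 10.31 (log2 intensity) in the 5XFAD arrays, against 9.69, 10.55 and 9.21 in the WT arrays. Its groups overlapped at WT replicate 2, with a log2 difference of 0.75 ± 0.29 (SE; limma, Benjamini-Hochberg adjusted p = 0.73).

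The genes most like the Zic2 and Zic5 mean over the arrays were others, namely Trim9, Clip4, Dach1, Slc13a4 and Zfp169, with correlations of 0.954 to 0.986. Trim9, a ubiquitin ligase gene of neurons, read 6.73, 6.70 and 6.91 (log2 intensity) in the 5XFAD arrays, against 6.05, 6.48 and 6.13 in the WT arrays. Dach1, a transcription factor gene of the eye determination network, read 7.13, 7.34 and 7.16 in the 5XFAD arrays, against 6.64, 6.87 and 6.49 in the WT arrays. Slc13a4, a sulfate transporter gene, read 7.95, 7.72 and 7.92 in the 5XFAD arrays, against 6.48, 7.52 and 6.25 in the WT arrays. All 5 had 5XFAD arrays that lay above all WT arrays, as had 4.72% of all genes, and their choice favours this. WT replicate 2 was the highest WT array in each, which the choice also favours. With group means taken off, the highest of the same 2905 genes were Shroom3, Col4a5, Slc22a8, Rpa2 and Slc35f3 (0.986 to 0.991). These values too are high in part by the choice. Of the 5 genes, 3 had 5XFAD arrays that all lay below the WT arrays, as had 6.62% of all genes. Among the 3 was Slc22a8, an organic anion transporter gene, at -0.40 ± 0.13 (log2, SE; limma, Benjamini-Hochberg adjusted p = 0.63).

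**Figure D3:**
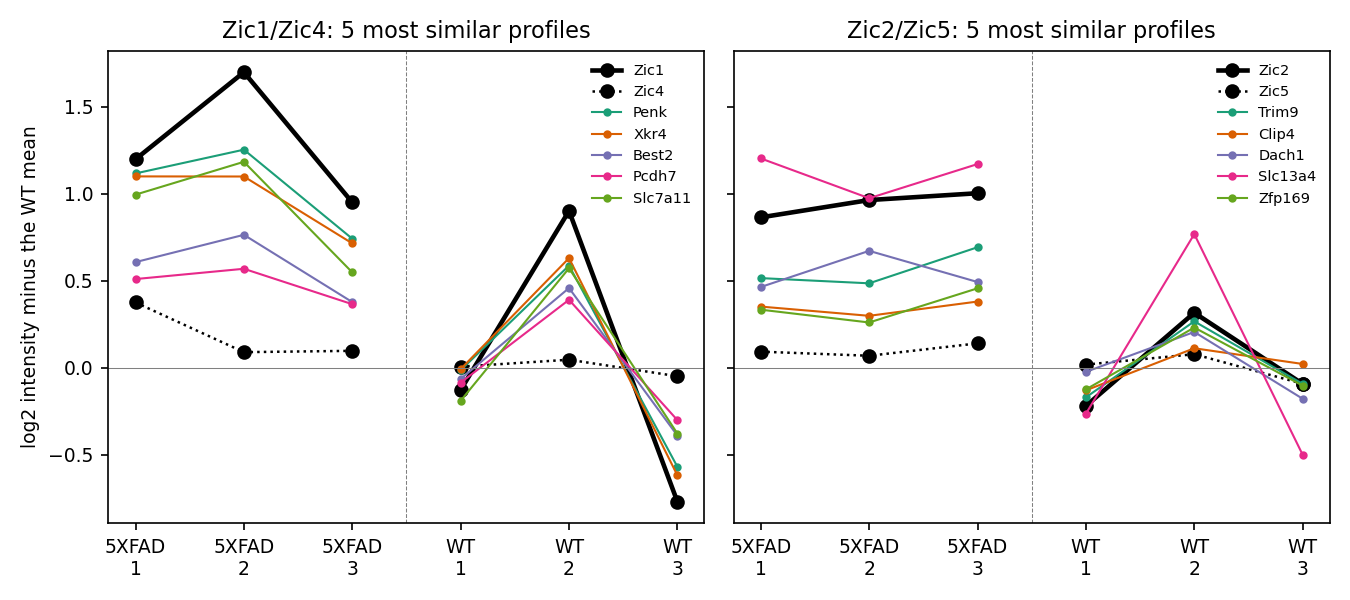
Log2 intensity minus the gene's WT mean (vertical axis) in each array, for the Zic genes in black (Zic4 and Zic5 dotted) and the 5 genes most like each pair's mean in colour. Lines only guide the eye, since replicates have no order. WT replicate 2 is the highest WT array in Zic1, Zic2 and all 10 coloured genes, which were picked for likeness.

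Markers of the ciliary body, the ring of tissue at the front of the RPE and choroid, were set beside the Zic genes. The list held 10 measured genes, 9 of them with a positive difference, and its median log2 difference was 0.24. In limma 0 passed the adjusted threshold. At an unadjusted p under 0.05, 3 were higher and 1 lower, against 2.89% of all genes higher and 3.39% lower. Averaged over the list, log2 intensity was 7.40, 7.24 and 7.29 in the 5XFAD arrays, against 6.91, 7.25 and 6.89 in the WT arrays, and WT replicate 2 lay among the 5XFAD arrays. In WT replicate 2, 8 of the 10 genes had their highest WT value, as had 36.8% of all genes. So had 5 of 6 Gli and Glis genes, 5 of 8 brown adipocyte genes and 5 of 8 genes of choroidal endothelium. The count was 7 of 12 for RPE genes, 5 of 14 for meningeal genes, 1 of 11 for ganglion cell genes and 0 of 5 for Schwann cell genes. The summed level of the list ranged from 11.18 to 11.36 in 5XFAD and from 11.18 to 11.63 in WT (log2 of summed intensities), with Bmp4 its brightest gene, and its dimmest, Slc1a3, lay at percentile 35.4 of all genes. The part of ciliary tissue in the Zic values was not tested.

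Within the ciliary list, Otx1, a transcription factor gene of the ciliary margin, read 7.65, 7.94 and 7.87 (log2 intensity) in the 5XFAD arrays, against 6.78, 7.65 and 7.01 in the WT arrays. These arrays met at WT replicate 2, with a log2 difference of 0.67 ± 0.20 (SE; limma, Benjamini-Hochberg adjusted p = 0.59). Slc1a3, a glutamate transporter gene of ciliary epithelium and glia, read 6.16, 5.11 and 6.05 in the 5XFAD arrays, against 4.77, 5.10 and 4.48 in the WT arrays, a difference of 0.99 ± 0.26 (0.50, limma, Benjamini-Hochberg adjusted p). Aqp4, a water channel gene, differed by 0.51 ± 0.20 and Wfdc1, which marks the ciliary margin, by 0.28 ± 0.13. Bmp4, a growth factor gene, was the exception, at 10.05, 9.94 and 9.57 in the 5XFAD arrays, against 10.22, 10.72 and 10.20 in the WT arrays (-0.53 ± 0.17, log2, SE; limma, Benjamini-Hochberg adjusted p = 0.65).

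The meninges and optic nerve sheath, a known site of Zic1 expression, gave a list that ran the other way. Of its 14 genes 3 had a positive difference, and the median log2 difference was -0.16. In limma 0 passed over all genes, with 0 higher and 4 lower at an unadjusted p under 0.05, against 2.89% of all genes higher and 3.39% lower. The transporter genes Slc6a20a, Slc22a8 and Slc6a13 differed by -0.49 ± 0.14, -0.40 ± 0.13 and -0.32 ± 0.11 (log2, SE). Aldh1a2, a retinoic acid synthesis gene, differed by -0.36 ± 0.14. In this order their Benjamini-Hochberg adjusted p in limma was 0.52, 0.63, 0.65 and 0.74. With group means taken off, Slc22a8 was also among the profiles closest to the Zic2 and Zic5 mean. Averaged over the list, log2 intensity was 8.17 ± 0.08 in 5XFAD and 8.32 ± 0.02 in WT (SD, n = 3 each). Its summed level ranged from 13.73 to 13.93 in 5XFAD and from 13.94 to 14.01 in WT. Slc6a20a and Slc6a13 lay at percentile 99.4 and 97.3 of all genes, and the RPE list was lower too, with a median log2 difference of -0.37. Which tissue these transcripts came from, and the part of meningeal tissue in the Zic values, was not tested.

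Brown adipocytes and retinal ganglion cells are further cell types in which Zic genes are known. The brown adipocyte list of 8 genes had a median log2 difference of 0.01, and in limma 0 genes passed the adjusted threshold or had an unadjusted p under 0.05. Its defining gene Ucp1 lay at 4.83 ± 0.12 in 5XFAD and 4.96 ± 0.10 in WT (log2 intensity, SD, n = 3 each). The ganglion cell list of 11 genes had a median of -0.01, or 0.17 without the dimmest 50% of genes, and it kept its sign in 5 of 13 alternatives. It had 0 past the threshold over all genes in limma. At an unadjusted p under 0.05, 1 was higher and 0 lower, against 2.89% of all genes higher and 3.39% lower. The higher gene was Rbpms, an RNA-binding protein gene, at 0.30 ± 0.12. Among 17 measured transcription factor genes of the periocular mesenchyme and neural crest the median was -0.05, or 0.04 without the dimmest 50% of genes. There limma called 0 over all genes. At an unadjusted p under 0.05, 1 was higher and 2 lower, against the same shares of all genes, 2.89% and 3.39%. Prrx1 (0.28 ± 0.12) was the higher gene, and Six2 (-0.33 ± 0.10) and Sox9 (-0.41 ± 0.14, log2, SE) were the lower.

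Krt4, Krt6a, Krt13 and Krt15, which encode keratins of stratified epithelium, rose in 5XFAD. They were the 4 of 13 genes of the surface epithelium list that passed the adjusted threshold in limma, as did 0.0225% of all genes. The surface epithelium is a tissue of the front of the eye. The list's median log2 difference was 1.07, the value of Pax6. Of its 13 genes 10 were positive, among them Krt12 (0.40) and Trp63 (0.09), whose groups overlapped. Dsp (-0.19), Aldh3a1 (-0.07) and Perp (-0.01) were negative. Leaving out WT replicate 3 ended the calls of Krt6a, Krt13 and Krt15, at 0.066, 0.091 and 0.091, and Krt13 was also lost without 5XFAD replicate 3 or WT replicate 1, at 0.074 and 0.11 (limma, Benjamini-Hochberg adjusted p). The replicate block ended the call of Krt13, at 0.0501, and the trended and robust prior that of Krt15, at 0.090 (limma, Benjamini-Hochberg adjusted p). Averaged over the epithelium list, log2 intensity was 6.62, 6.98 and 7.21 in the 5XFAD arrays, against 5.83, 5.88 and 5.82 in the WT arrays. Pax6 of this list read 8.29, 8.54 and 8.30 in the 5XFAD arrays, against 7.18, 8.08 and 6.65 in the WT arrays. Its WT arrays were highest in replicate 2 and lowest in replicate 3, as were those of Zic1. The skeletal muscle mean was 7.04, 6.31 and 6.02 in the 5XFAD arrays, against 5.42, 5.62 and 6.60 in the WT arrays, with WT replicate 3, the lowest in Zic1, the highest WT array. The RPE mean was 10.71, 10.63 and 10.77 in the 5XFAD arrays, against 10.96, 11.10 and 11.01 in the WT arrays, with the 5XFAD arrays below. Outside the surface epithelium list, 0 of 171 genes in 17 lists passed the adjusted threshold in limma, with 13 higher and 18 lower at an unadjusted p under 0.05, against 2.89% of all genes higher and 3.39% lower. The part of these tissues in the Zic values was not tested.

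**Figure D4:**
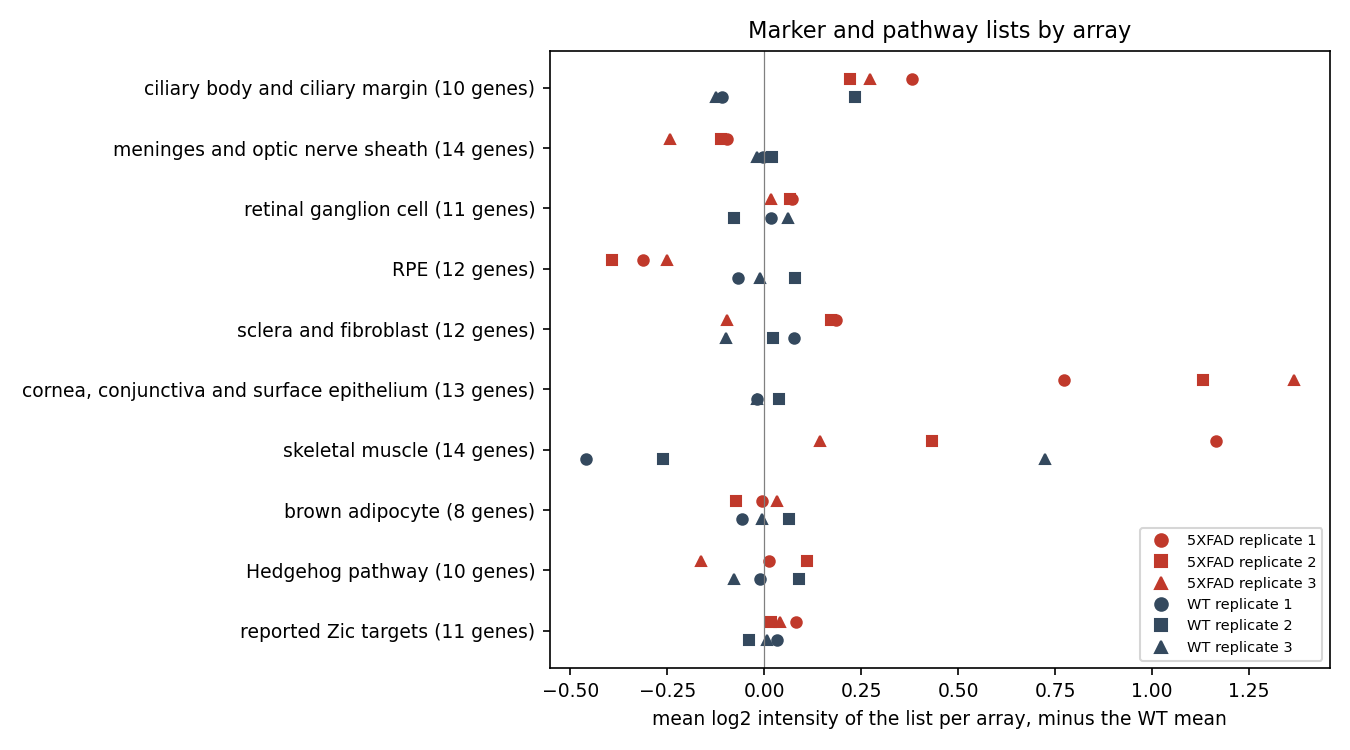
Mean log2 intensity of each marker or pathway list per array, minus its WT mean (horizontal axis), with 5XFAD arrays in red above WT arrays in dark blue and a shape for each replicate number. In the ciliary list WT replicate 2 (square) lies among the 5XFAD arrays, whereas in the surface epithelium list all 5XFAD arrays lie above all WT arrays.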

How the data were processed

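Sample titles gave the groups and replicate numbers. The authors deposited 1 log2 intensity per probe set and array. The submitters' processing notes name RMA and Affymetrix Expression Console 1.1, and RMA includes background correction, quantile normalization and a log2 summary over probes. Of 33793 probe sets, 23521 had 1 symbol in the platform annotation, and the brightest of each gene was kept (22180 genes). Scan dates, detection calls and the genome build of the probes were not used here.

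Genotypes were compared over all genes by the moderated two-sided test of limma (version 3.58.1, R 4.3.3) without covariates, with Benjamini-Hochberg adjustment and a threshold of 0.05, after the steps were tested on simulated data. Likeness was a Pearson correlation with the mean of a Zic pair. Named were the Zic genes, 3 neighbours on each side of a pair, the 5 most similar profiles, and list members of smallest p, with a few fixed Hedgehog and target genes. Predicted genes, receptors of smell and small RNAs were passed over. The members and lists were chosen with earlier results of these data known. Promoter sequences and gene neighbours came from RefSeq (GRCm38.p6), and 23328 Entrez identifiers matched. The 13 alternatives are given in the closing section.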

Additional observations from a re-analysis of the deposited data

How the results depend on the processing

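Over the 13 alternatives the log2 differences of Zic1 and Zic2 kept their sign and moved by less than the SD pooled over both groups. Those of Zic4 and Zic5 kept their sign in the 12 alternatives that retained them. Both drop out when the dimmest 50% of genes are left out, so that no pair mean is given there. The exception in size was Zic5, at 0.17 with the mean of its 2 probe sets. With each array left out in turn, Zic1 ran from 0.90 to 1.73, Zic2 from 0.83 to 1.1, Zic4 from 0.09 to 0.23, Zic5 from 0.05 to 0.14, the Zic1 and Zic4 mean from 0.53 to 0.97 and the Zic2 and Zic5 mean from 0.47 to 0.62.

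The labels tie no replicate number to a litter or day, so the samples were not treated as paired. Deviations of same-numbered arrays correlated at -0.06, -0.05 and 0.13, and those of other arrays at -0.08 to 0.13. Such weak correlations of so few arrays cannot decide whether samples were paired. With the replicate number as a block the differences are the same by construction (1.28 for Zic1). The SE was then 0.17 for Zic1 and 0.13 for Zic2, against 0.36 and 0.14 without the block.

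In limma, the count of genes past the adjusted threshold was 5 and became 8 without the dimmest 30% of genes, 11 after another quantile normalization, 8 with arrays centred on their medians, 9 with a trended and robust prior, and 3 (without WT replicate 3) to 19 (without WT replicate 2) with an array left out. Of these, list genes numbered 4, and 1 to 5 with an array left out. Genes higher with groups that do not overlap numbered 1047, became 623 without the dimmest 50% of genes, where fewer genes were tested, and 1946 to 2366 with an array left out, where fewer arrays have to be apart. Otherwise the cause was not tested. No detection calls were used, so which dim genes lay above background was not tested.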
